A study of Mus musculus with 24 samples.

Results

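The step from circadian time (CT) 13 to CT19 was followed in eWAT, white fat from the pad at the epididymis, of control mice, by setting the 3 arrays of CON CT19 against the 3 arrays of CON CT13. These are 6 of the 24 Affymetrix GeneChip arrays of the series, and each array is the RNA of 1 mouse. Every gene with a probe set carrying its symbol alone was eligible, and the brightest such probe set stood for the gene, which gave 22180 genes, of which 15526 passed a filter on dim signal and were tested. CT counts hours of the internal day of an animal in constant darkness, with the subjective night starting at CT12, so CT13 lies at the start of the night and CT19 past its middle, when mice are active and feed.

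CON mice were Syt10-Cre/Cre x Bmal1 +/-, and MUT mice were Syt10-Cre/Cre x Bmal1 flox/-. Both genotypes therefore carry the Cre driver on both Syt10 alleles and 1 lost Bmal1 allele, and the controls are not wild type. In MUT mice the clock of the suprachiasmatic nucleus (SCN), the pacemaker of the hypothalamus is functionally deleted, and Cre is made wherever the Syt10 locus is active, which includes the SCN. All mice spent 2 weeks in a light-dark cycle, were released into darkness, and were killed on the second day at CT1, CT7, CT13 or CT19, with 3 mice for every genotype at every time. The labels give mediobasal hypothalamus as the source but eWAT in titles and treatment, so markers of both were checked.

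The molecular clock is a loop in which BMAL1 (gene Arntl) pairs with CLOCK or NPAS2 at E-box sequences and drives the Per, Cry and Nr1d genes, whose proteins then hold the loop back. PER and CRY proteins block the activators, and the REV-ERB receptors made from Nr1d1 and Nr1d2 compete with ROR receptors at RORE sequences to repress Arntl, Npas2 and Clock. Output factors such as DBP and TEF carry the rhythm on to other genes through D-box sequences. White fat stores feeding-phase energy as triglyceride, and insulin after a meal favours glucose uptake, fatty acid synthesis and glycogen storage in it.

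Promoter windows of 6 genes called in the step are shown as examples that hold, letter for letter, a clock sequence described above or a sterol element. Other called genes also held such a match, and the shares over all genes are given below. Each window runs from 250 bases before to 50 bases after a transcript start in RefSeq (GRCm38.p6), is written 5′ to 3′ on the strand of the gene, and has the matched motif in capitals. Arntl, which was higher at CT19, has a RORE core (TAGGTCA) in chr7:113207261-113207560 on the plus strand, at position 31 counted from the start. Per1, which was lower, has an E-box (CACGTG) in chr11:69098699-69098998 on the plus strand, 166 bases before the start. Per3, also lower, has 2 D-boxes (TTANGTAA) in chr4:151044616-151044915 on the minus strand, 205 and 158 bases before the start. Tef, lower as well, has an E-box in chr15:81802423-81802722 on the plus strand, 127 bases before the start. Pfkfb3, which was higher, has an E-box in chr2:11502041-11502340 on the minus strand, 53 bases before the start. Hmgcs1, also higher, has a sterol element (TCACNCCAC) in chr13:119690101-119690400 on the plus strand, 137 bases before the start. Arntl, Per1 and Pfkfb3 each have another annotated window, not shown, without a match to any motif searched. A second window of Tef, not shown either, has its own E-box, 138 bases before the start.
Arntl: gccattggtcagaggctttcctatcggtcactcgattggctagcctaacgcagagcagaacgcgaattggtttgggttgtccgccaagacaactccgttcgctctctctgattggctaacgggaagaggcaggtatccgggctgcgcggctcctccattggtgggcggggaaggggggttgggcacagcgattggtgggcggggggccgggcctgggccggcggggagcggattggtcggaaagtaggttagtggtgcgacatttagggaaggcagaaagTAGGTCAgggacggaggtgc
Per1: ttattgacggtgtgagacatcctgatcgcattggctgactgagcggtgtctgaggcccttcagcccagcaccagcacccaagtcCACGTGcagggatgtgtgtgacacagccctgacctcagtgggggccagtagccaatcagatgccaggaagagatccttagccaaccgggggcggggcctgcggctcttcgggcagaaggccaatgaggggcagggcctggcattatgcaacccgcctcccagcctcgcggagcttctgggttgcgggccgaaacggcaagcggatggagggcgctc
Per3: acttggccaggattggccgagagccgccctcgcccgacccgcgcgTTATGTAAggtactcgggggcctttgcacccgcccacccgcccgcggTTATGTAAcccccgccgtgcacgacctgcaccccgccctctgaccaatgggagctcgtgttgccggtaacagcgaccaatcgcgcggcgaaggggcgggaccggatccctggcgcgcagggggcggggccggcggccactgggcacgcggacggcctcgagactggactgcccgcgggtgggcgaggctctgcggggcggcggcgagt
Tef: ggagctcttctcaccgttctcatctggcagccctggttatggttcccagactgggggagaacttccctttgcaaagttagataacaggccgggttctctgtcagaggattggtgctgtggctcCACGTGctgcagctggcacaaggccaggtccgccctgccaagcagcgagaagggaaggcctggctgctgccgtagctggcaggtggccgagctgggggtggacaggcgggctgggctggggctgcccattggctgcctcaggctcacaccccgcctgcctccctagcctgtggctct
Pfkfb3: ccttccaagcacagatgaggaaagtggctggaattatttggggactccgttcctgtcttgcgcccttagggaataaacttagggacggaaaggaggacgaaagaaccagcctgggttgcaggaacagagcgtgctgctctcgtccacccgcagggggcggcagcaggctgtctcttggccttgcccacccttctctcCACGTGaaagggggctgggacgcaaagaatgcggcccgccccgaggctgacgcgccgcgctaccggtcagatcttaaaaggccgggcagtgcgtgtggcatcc
Hmgcs1: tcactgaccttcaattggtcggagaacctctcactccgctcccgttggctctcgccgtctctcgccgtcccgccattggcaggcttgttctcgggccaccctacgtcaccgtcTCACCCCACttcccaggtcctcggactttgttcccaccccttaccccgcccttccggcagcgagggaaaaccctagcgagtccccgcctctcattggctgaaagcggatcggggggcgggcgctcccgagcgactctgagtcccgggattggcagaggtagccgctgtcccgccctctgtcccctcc

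The arrays carried adipocyte signal, and they did not all stand equally far apart. Of 13 listed adipocyte markers, 12 passed the signal filter, which was set at the 30th percentile, and 1 had no probe set of its own. Adipoq, Lep, Plin1 and Fabp4 were among the 12. Of 16 listed hypothalamus and neuron markers, 9 passed it, 6 were under it and 1 had no probe set of its own. Among all tested genes, the median signal percentile was 99.6 for the adipocyte markers that passed and 25.0 for the neuronal ones. Of the genes of hypothalamic neuropeptides, Pomc and Pmch were under the filter, while Hcrt and Npy passed it. The summed signal of the adipocyte markers was 16.48 to 16.60 on the log2 scale at CT19 and 16.58 to 16.62 at CT13, and that of the neuronal markers was 11.18 to 11.25 at CT19 and 11.24 to 11.35 at CT13. The CT19 arrays had a wider spread of log2 signal over probe sets (SD 1.62 to 1.64) than the CT13 arrays (1.58 to 1.62), and the ranges met at 1.62. The median log2 difference ran with signal level, at -0.05 in the dimmest of 10 equal bins of tested genes and 0.07 in bin 8. CON CT13 replicate 3 correlated more closely with CON CT19 replicate 1 (r = 0.9959 over all probe sets) than with the other CT13 arrays (0.9926 and 0.9934). CON CT19 replicate 2 stood farthest from the other arrays, at r = 0.9905 and 0.9899 with its own group and 0.9874 to 0.9888 with the CT13 arrays. No batch, slide or scan date is given in the labels.

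Across all genes, 61 changed between CT13 and CT19, and more of them rose than fell. At an adjusted p under 0.05 in limma's moderated test, 0.393% of the 15526 tested genes were called, with 45 higher at CT19 (0.29%) and 16 lower (0.103%). In all 61 the 3 CT19 arrays lay wholly above or wholly below the 3 CT13 arrays, a separation that 10.3% of tested genes showed upward and 7.34% downward. At an unadjusted p under 0.05 there were 2068 genes, or 13.3%. The median log2 difference of all tested genes was 0.005 and the median absolute difference was 0.08, against medians of 0.50 for the called higher genes and -0.49 for the called lower genes. Of the called genes, 17 higher and 6 lower changed at least 1.5-fold, and 5 higher and 3 lower at least 2-fold.

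Single arrays and the scaling moved these counts. Without CON CT13 replicate 1 the same fit called 4 genes higher and 3 lower, and without CON CT19 replicate 2 it called 10 higher and 3 lower. Leaving out CON CT13 replicate 2 gave 52 higher and 7 lower. Without the closely correlated CON CT19 replicate 1 the counts were 38 and 13, and without CON CT13 replicate 3 they were 42 and 19. The share of called genes that were higher, 73.8% as deposited, was 55.9% after quantile normalization (38 higher, 30 lower), 85.5% with arrays set to the same median (47 and 8), and 55.6% once each array's trend over signal level was taken out (30 and 24). Only 7 genes were called in all 6 fits with 1 array left out, namely Arntl, Npas2, Cdkn1a and Pfkfb3 among the higher genes and Per3, Dbp and Nr1d2 among the lower. All of these but Nr1d2 were also called in each of 12 other alternatives, and Nr1d2 lost its call where only the arrays of the groups compared were fitted. Of the other called genes, 4 held in 5 of the 6 fits with 1 array left out, 8 in 4 and 7 in 3. A further 15 held in 2 of these fits, 19 in 1 and 1 in none.

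Activators of the clock were higher at CT19 than at CT13. Of 4 tested clock activators, 3 were called higher and none lower, and the median log2 difference of the 4 was 0.84 against 0.005 for all tested genes. The share called higher among all tested genes was 0.29%. Npas2, a partner of BMAL1, had log2 signals of 9.85, 9.88 and 9.90 at CT19 and 8.23, 8.65 and 8.41 at CT13. The CT19 arrays lay close together and far above the CT13 arrays, and the difference was 1.45 ± 0.17 (SE, n = 3 each), a fold of 2.73 (limma, adjusted p = 0.000276). Arntl, the gene of BMAL1, had 9.52, 9.64 and 9.46 at CT19 and 8.27, 8.68 and 8.13 at CT13. The groups again did not overlap, and the fold was 2.26 (log2 difference 1.18 ± 0.15, adjusted p = 0.000278). Clock, which encodes the other partner of BMAL1, had 11.28, 11.10 and 11.23 at CT19 and 10.59, 10.89 and 10.62 at CT13. Its change was smaller, at 1.41-fold (0.50 ± 0.09, adjusted p = 0.00881), with CT13 replicate 2 lying nearest to the CT19 arrays, and its call was lost without CT13 replicate 1. Rora, which encodes a ROR receptor, overlapped between the groups (log2 difference -0.12 ± 0.09, adjusted p = 0.569).

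Repressors of the clock did not move as a block. Of 9 tested, 3 were called lower (Nr1d2, Per3 and Per1) and none higher, against 0.103% of all tested genes called lower, and the median log2 difference was -0.07. Nr1d2, the gene of REV-ERBβ, had 8.27, 7.97 and 8.68 at CT19 and 9.55, 9.29 and 9.88 at CT13. Every CT19 array was below every CT13 array, and the gene was 2.41-fold lower (log2 difference -1.27 ± 0.19, limma, adjusted p = 0.00218). Per3, a Period gene, had 8.82, 8.56 and 9.11 at CT19 and 9.85, 9.88 and 10.15 at CT13, which is 2.19-fold lower (-1.13 ± 0.16, adjusted p = 0.000883). Per1, a Period gene that also responds to glucocorticoids, had 10.03, 9.89 and 10.26 at CT19 and 10.64, 10.69 and 10.87 at CT13. It was 1.59-fold lower with no overlap (adjusted p = 0.0366), and 5 of the 6 fits with 1 array left out did not call it, all but the one without CT19 replicate 3. Per2 had no probe set of its own.

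The other repressors did not pass the test. Nr1d1, the gene of REV-ERBα, had 9.54, 9.12 and 9.61 at CT19 and 10.14, 9.73 and 10.31 at CT13. The groups did not overlap, yet its log2 difference of -0.64 ± 0.17 had an adjusted p of 0.103. The E-box repressors of the DEC family lay the other way. Bhlhe40 had 10.80, 10.93 and 10.74 at CT19 and 9.80, 10.30 and 9.68 at CT13 (0.90 ± 0.22, adjusted p = 0.0643), without overlap, and Bhlhe41 differed by 0.81 ± 0.24 (adjusted p = 0.146), with overlap. Cry1, whose protein blocks the activators late in the cycle, had 8.83, 9.06 and 9.06 at CT19 and 8.66, 8.78 and 8.53 at CT13 (0.33 ± 0.09, adjusted p = 0.12). Cry2 and Ciart, the gene of the repressor CHRONO, overlapped between the groups.

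Clock outputs fell in part. Of 7 tested, 4 were called lower and none higher, against 0.103% of all tested genes called lower, and the median log2 difference was -0.45. Dbp, a D-box activator driven by E-boxes, had 8.58, 8.39 and 8.60 at CT19 and 9.62, 9.33 and 9.95 at CT13. It was 2.15-fold lower with a wide gap between the groups (-1.11 ± 0.17, limma, adjusted p = 0.00256). Tef, a D-box activator of the same family, had 8.67, 8.54 and 8.76 at CT19 and 9.24, 9.20 and 9.34 at CT13, a fold of 1.52 downward (adjusted p = 0.0116). A second, dimmer probe set of Tef differed by -0.20. Usp2, the gene of a deubiquitinase, had 9.37, 9.47 and 9.48 at CT19 and 9.88, 10.07 and 9.73 at CT13 and was 1.37-fold lower (adjusted p = 0.043). Tspan4, which encodes a membrane tetraspanin, had 9.66, 9.56 and 9.63 at CT19 and 9.93, 9.97 and 10.32 at CT13, also 1.37-fold lower (adjusted p = 0.0366). The calls of Usp2 and Tspan4 each held in 1 of the 6 fits with 1 array left out. Wee1, the gene of a kinase that holds back mitosis, was lower in every CT19 array (-0.56 ± 0.13) with an adjusted p of 0.0511, and Hlf and Nfil3 did not pass.

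**Figure D1:**
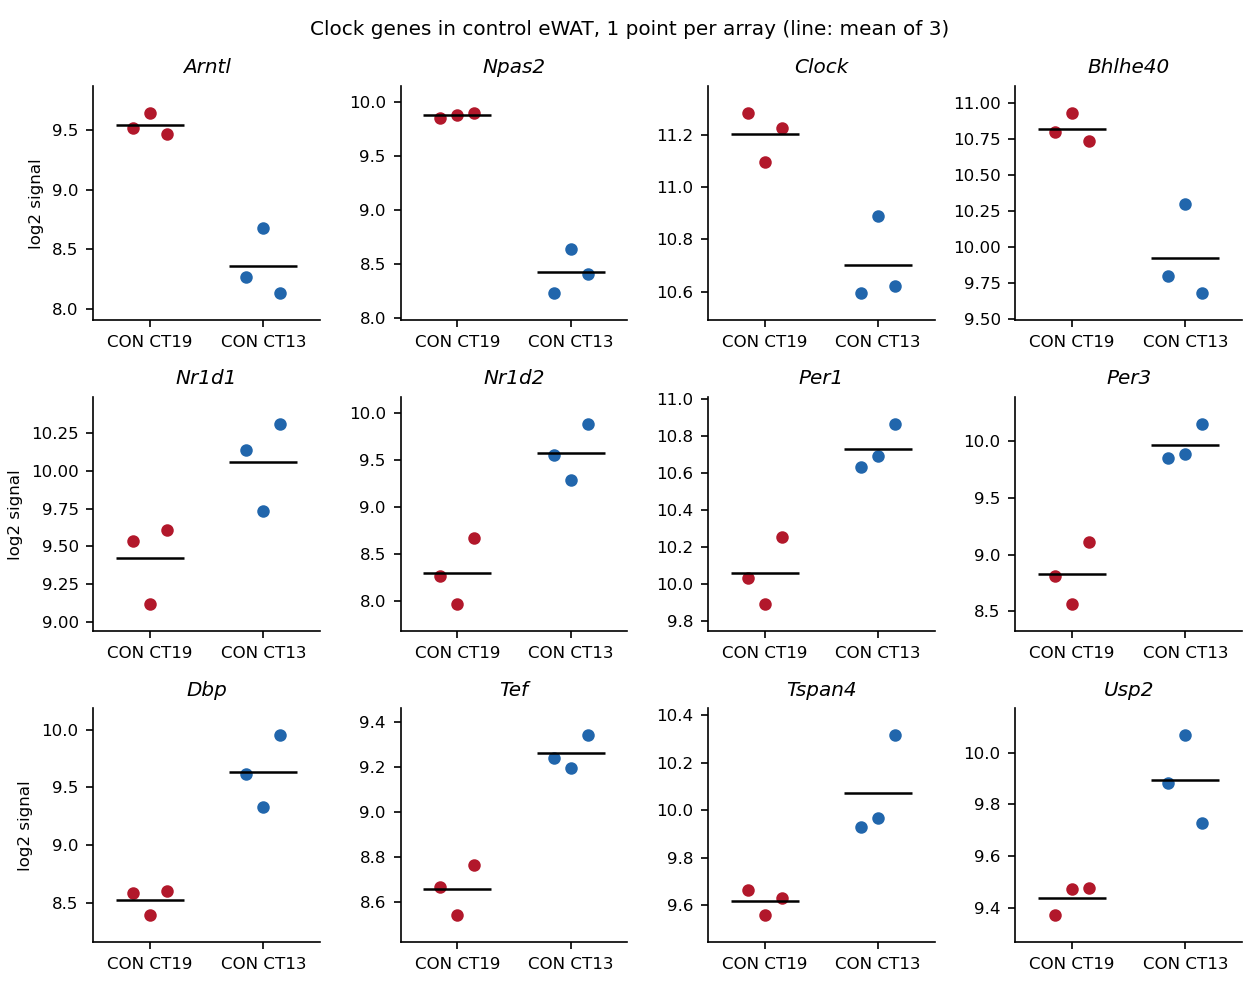
Log2 signal (vertical axis) of 12 clock genes in each of the 3 CON CT19 arrays (red) and the 3 CON CT13 arrays (blue), with a line at each group's mean. Arntl, Npas2 and Clock sit higher at CT19 and Nr1d2, Per1, Per3, Dbp, Tef, Tspan4 and Usp2 lower, all called, while Bhlhe40 and Nr1d1 are separated without passing the test.

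Angptl8 and Mid1ip1, genes of triglyceride handling and synthesis, rose. Angptl8, whose secreted product is induced by feeding and restrains lipoprotein lipase, had 11.60, 12.30 and 11.53 at CT19 and 10.14, 10.80 and 9.66 at CT13. All CT19 arrays were above all CT13 arrays, with CT19 replicate 2 far above its group, and the fold of 3.05 was the largest of the step (log2 difference 1.61 ± 0.33, limma, adjusted p = 0.0366). It lost its call without CT19 replicate 2, CT13 replicate 1 or CT13 replicate 3. Mid1ip1, whose protein promotes the assembly of acetyl-CoA carboxylase into active polymers, had 10.02, 10.65 and 9.74 at CT19 and 9.43, 9.48 and 9.03 at CT13, a fold of 1.77 (adjusted p = 0.0466). Its dimmer probe sets differed by -0.07 and 0.46 against 0.82 for the one used, and the call held in 1 of the 6 fits with 1 array left out and in 3 of 12 other alternatives.

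None of the 20 tested fatty acid and triglyceride synthesis genes was called, although 19 of them had a positive difference and the list's median was 0.25. The median was 0.005 for all tested genes and 0.05 in the brightest of 10 equal bins of signal. Srebf1, the gene of the main transcription factor of lipogenesis, had 11.18, 11.69 and 11.10 at CT19 and 10.98, 10.68 and 10.70 at CT13 (0.54 ± 0.16, adjusted p = 0.135). The fatty acid elongase Elovl6 had 10.12, 11.35 and 10.39 at CT19 and 9.54, 9.80 and 9.26 at CT13 (1.09 ± 0.33, adjusted p = 0.16). Both groups were separate for these 2 genes, with CT19 replicate 2 the highest array in each. Pnpla3, a lipid droplet protein gene induced by feeding, differed by 0.62 ± 0.19 (adjusted p = 0.167), and Acly and Acaca, which make acetyl-CoA and malonyl-CoA for new fatty acids, by 0.87 and 0.59 with overlap (adjusted p = 0.279 and 0.271). Angptl8 was the 1 called gene of 16 tested for lipolysis and fatty acid handling, whose median was -0.004. Over all tested genes, 0.29% were called higher. Gpihbp1, which anchors lipoprotein lipase to the capillary wall, and Lipe, the gene of hormone-sensitive lipase, differed by -0.22 and -0.11 and did not pass.

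Cholesterol synthesis genes rose in part. Of 16 tested, 3 were called higher and none lower, 14 had a positive difference, 7 were separated upward, and the median was 0.41 against 0.005 for all tested genes. Among all tested genes, 0.29% were called higher and 10.3% were separated upward. Hmgcs1, the enzyme that makes HMG-CoA and whose promoter window above holds a sterol element, had 10.72, 10.97 and 10.99 at CT19 and 9.92, 10.17 and 10.11 at CT13. The groups lay well apart, at 1.77-fold (0.83 ± 0.14, limma, adjusted p = 0.00652), and the call was lost only without CT13 replicate 1 among the 6 omissions. Srebf2, the gene of the transcription factor that drives this pathway, had 9.81, 9.96 and 9.90 at CT19 and 9.58, 9.52 and 9.56 at CT13, which is 1.26-fold higher (adjusted p = 0.0134). Sc5d, a late sterol desaturase, had 11.75, 12.16 and 11.52 at CT19 and 11.16, 11.38 and 11.20 at CT13, or 1.47-fold higher (adjusted p = 0.043). Srebf2 and Sc5d lost their calls after quantile normalization and with the level trend removed. With 1 array left out, the Srebf2 call held in 4 of the 6 fits and the Sc5d call in 2. Dhcr7, Cyp51 and Sqle, enzymes of later steps, differed by 0.45, 0.81 and 0.49 without overlap but did not pass (adjusted p = 0.0571, 0.0708 and 0.146).

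In glucose metabolism, 2 genes around phosphofructokinase rose. Pfkfb3, whose enzyme makes fructose 2,6-bisphosphate, the activator of phosphofructokinase, had 11.20, 11.02 and 10.95 at CT19 and 10.31, 10.46 and 10.21 at CT13. The fold was 1.66 with a small error (0.73 ± 0.10, limma, adjusted p = 0.000516), and it was the 1 called gene of 16 in the insulin signalling and glucose use list, whose median was -0.004. Pfkp, a phosphofructokinase isoform, had 9.94, 9.93 and 9.66 at CT19 and 9.38, 9.37 and 9.31 at CT13, 1.40-fold higher (adjusted p = 0.00976), and was the 1 called gene of 12 in the hypoxia and glycolysis list. The share called higher was 0.29% of all tested genes. Hexokinase gene Hk2 (0.38 ± 0.13, adjusted p = 0.196) overlapped between the groups. None of 15 glycogen genes was called, with 14 positive differences and a median of 0.17, against 0.005 for all tested genes. Ppp1r3c, a subunit that targets protein phosphatase to glycogen, had 10.59, 10.87 and 10.63 at CT19 and 9.87, 10.17 and 9.72 at CT13, apart but not past the test (0.77 ± 0.18, adjusted p = 0.0596).

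**Figure D2:**
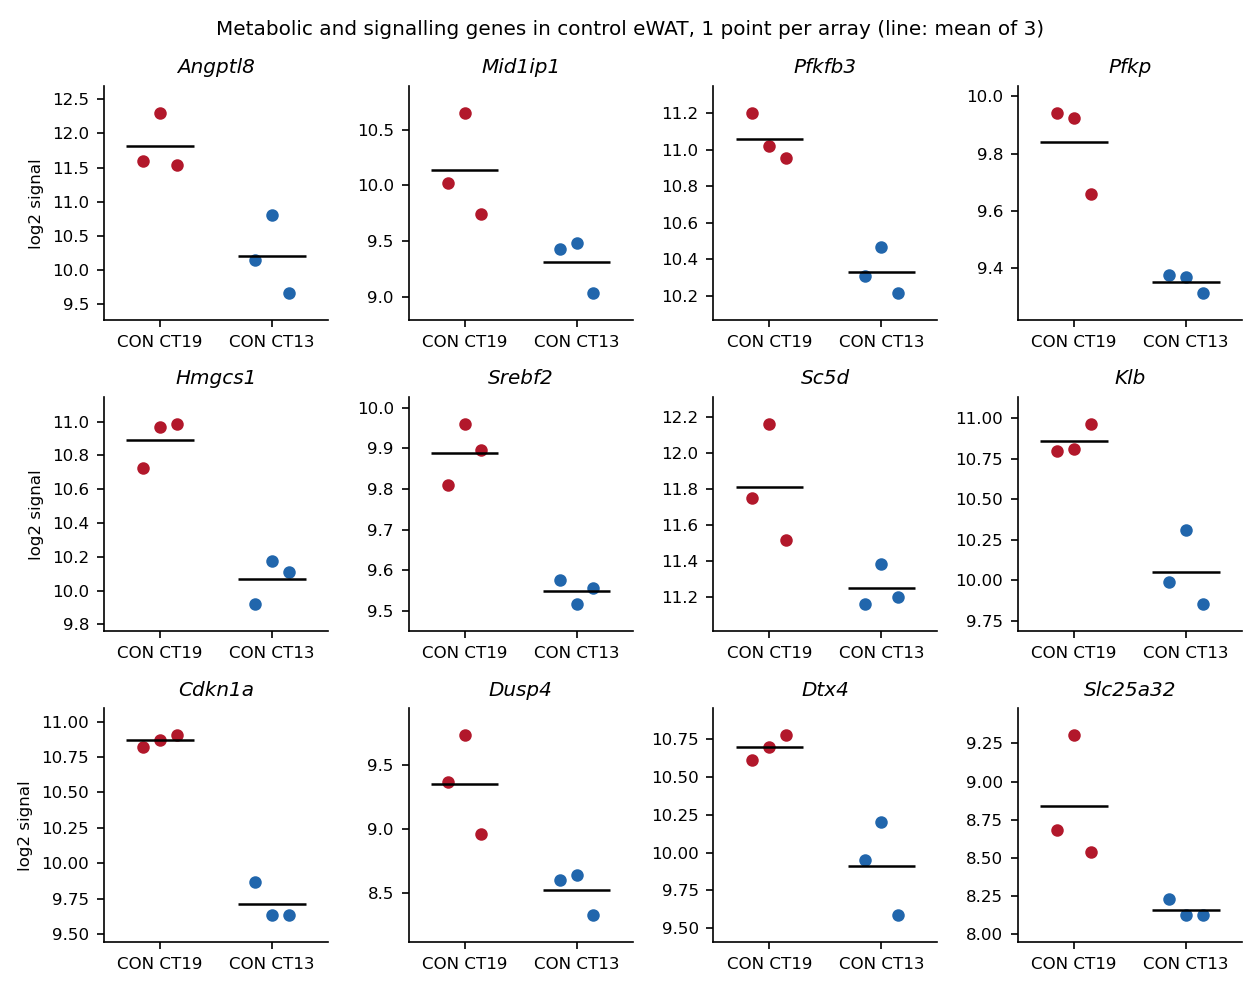
Log2 signal (vertical axis) of 12 metabolic and signalling genes called higher at CT19, in each CON CT19 array (red) and CON CT13 array (blue), with a line at each group's mean. The groups are apart in every panel, and in Angptl8, Mid1ip1, Srebf2, Sc5d, Dusp4 and Slc25a32 the middle CT19 point (replicate 2) is the highest.

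Glucocorticoid-responsive genes were split. Of 16 tested, 1 was called higher and 2 lower, with a median of -0.14, against 0.29% and 0.103% of all tested genes called higher and lower. Cdkn1a, which encodes the cell cycle inhibitor p21 and stands in both the glucocorticoid and p53 lists, had 10.82, 10.87 and 10.91 at CT19 and 9.86, 9.63 and 9.63 at CT13. The CT19 arrays were tightly grouped and the fold was 2.23 (1.16 ± 0.16, limma, adjusted p = 0.000902). It was the 1 called gene of 13 p53 targets, and Plk3 and Phlda3 of that list did not pass (0.27 and 0.19). Tsc22d3, a glucocorticoid-induced leucine zipper gene, had 9.29, 9.43 and 9.55 at CT19 and 9.85, 9.79 and 9.70 at CT13 and was 1.28-fold lower (adjusted p = 0.0417). The Tsc22d3 call held in 2 of the 6 fits with 1 array left out. Per1 was the other called lower member. Fkbp5, a classic target of the receptor, was lower in every CT19 array but did not pass (-0.29 ± 0.12, adjusted p = 0.295), and Zbtb16 overlapped.

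The other 5 of the 12 largest increases were Snora62, Dusp4, Klb, Dtx4 and Tspan18. Klb, the co-receptor through which FGF21 acts on fat, had 10.80, 10.81 and 10.96 at CT19 and 9.99, 10.31 and 9.85 at CT13, 1.75-fold higher (limma, adjusted p = 0.00687). Dtx4, a Deltex ubiquitin ligase gene, had 10.61, 10.70 and 10.78 at CT19 and 9.95, 10.20 and 9.59 at CT13, 1.72-fold higher (adjusted p = 0.00751). Both pairs of groups were apart, and both calls were lost without CT13 replicate 1. Dusp4, a phosphatase of MAP kinases, had 9.37, 9.74 and 8.96 at CT19 and 8.60, 8.64 and 8.33 at CT13, 1.78-fold higher (adjusted p = 0.0366). Tspan18, a tetraspanin gene, had 10.11, 10.70 and 10.05 at CT19 and 9.48, 9.41 and 9.81 at CT13, 1.64-fold higher (adjusted p = 0.0366). In both, CT19 replicate 2 was the highest array, and neither was called without it, with Dusp4 called in 1 of the 6 omissions. Snora62, a small nucleolar RNA gene, was 2.02-fold higher (adjusted p = 0.0392), with CT19 replicate 3 at 10.65 against 9.60 and 9.90 in the other CT19 arrays and 8.86 to 9.19 at CT13. Its call held in 1 of the 6 omissions and in 7 of 12 other alternatives.

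The remaining called genes, named after their values were seen, had smaller differences. Slc25a32, a mitochondrial folate carrier gene, was 1.60-fold higher (limma, adjusted p = 0.0254) and Morc4 also 1.60-fold (adjusted p = 0.00751). The mitochondrial genes Mrpl54 (a ribosomal protein, 0.62) and Cox7c (a subunit of cytochrome oxidase, 0.41) and the glutaredoxin gene Glrx (0.60) were higher on the log2 scale. So were Ddhd2 (0.60), Gpcpd1 (0.49), Pla2g15 (0.46) and the rhythmic deadenylase-family gene Noct (0.40). Others with smaller differences were Prr5, a subunit of mTORC2 (0.44), Tiparp, an ADP-ribosyltransferase gene (0.44), Smg5, of nonsense-mediated decay (0.40), the cullin Cul5 (0.32), the NuRD remodeller Chd4 (0.29) and the coactivator Ncoa7 (0.29). Second probe sets of Cul5, Necap1, Pla2g15 and Tiparp, all dimmer, differed by 0.03, -0.09, -0.09 and -0.05. The calls of Cox7c, Glrx, Prr5, Tiparp and Smg5 each held in 1 of the 6 fits with 1 array left out.

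Of the 16 lower genes, 7 were members of the clock lists and 9 were not. Among the 9, the gene 2010016I18Rik had 9.14, 9.35 and 9.86 at CT19 and 10.51, 10.51 and 10.15 at CT13, which is 1.92-fold lower (limma, adjusted p = 0.043). Crtac1, an extracellular matrix protein gene, had 8.11, 7.95 and 8.09 at CT19 and 8.75, 8.39 and 8.55 at CT13, 1.43-fold lower (adjusted p = 0.0326). The groups of both genes were apart, and each call held in 2 of the 6 fits with 1 array left out. Sertad4 (-0.35), the actin-binding Xin gene Xirp1 (-0.30) and Aff1, of the super elongation complex (-0.29), were lower by less. Mir297a-4, Mir669g and Olfr310 were called too (-0.52, -0.44 and -0.46), but they belong to multigene families with near-identical copies, so which member was measured is uncertain, and the other probe sets of Mir669g differed by -0.05 to -0.08.

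With 0.393% of all tested genes called, a short list would usually hold none, and most gene lists held no called gene. Beside fatty acid synthesis and glycogen, these were fatty acid oxidation (13 tested, median 0.10), FOXO targets (16, -0.08), adipokines (8, 0.009), heat shock proteins (15, 0.07), unfolded protein response (18, 0.06), ATF4 targets (17, 0.08), amino acid transporters (14, 0.06), ribosome biogenesis (24, 0.14), translation (16, 0.08), branched-chain amino acid catabolism (18, 0.10), oxidative phosphorylation (17, 0.09) and proteasome (17, 0.15). Likewise none was called among immediate early genes (17, 0.01), cAMP and adrenergic signalling (11, -0.05), interferon response (8, 0.09), inflammation (10, 0.04), extracellular matrix (17, 0.14), tubulins and actin cytoskeleton (14, 0.01), cell cycle (9, 0.005) and the cold-inducible RNA-binding protein gene Cirbp (0.28). Differences were above 0 in 23 of 24 ribosome biogenesis genes, 16 of 17 proteasome genes and 16 of 17 extracellular matrix genes. In these lists 7, 5 and 5 genes were separated upward, as were 10.3% of all tested genes. FOXO targets (13 of 16 below 0) and cAMP and adrenergic signalling genes (7 of 11) leaned the other way, with none separated. Lep, the leptin gene, had 12.92, 12.60 and 12.46 at CT19 and 12.69, 12.56 and 12.96 at CT13, with full overlap (-0.08 ± 0.14). Slc7a8, an amino acid transporter gene, was separated upward at 0.51 ± 0.12 without passing (adjusted p = 0.0589), as was Calr, a chaperone of the endoplasmic reticulum, at 0.25 ± 0.06 (adjusted p = 0.0571).

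**Figure D3:**
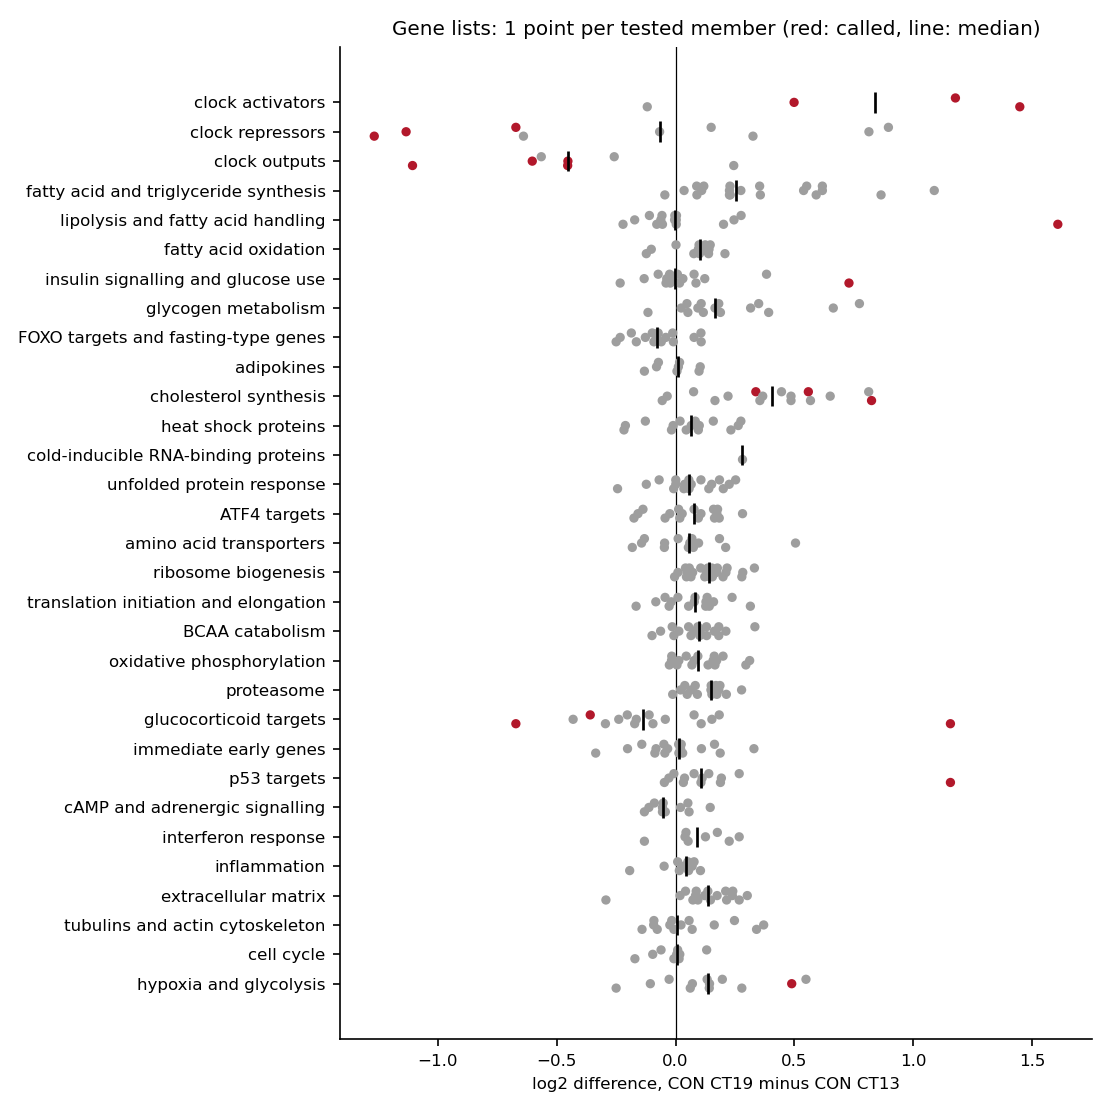
Log2 difference, CON CT19 minus CON CT13 (horizontal axis), of every tested member of the pathway lists, 1 list per row, with called members in red, others in grey, and the list median as a black line. Red points occur in the clock lists, cholesterol synthesis, glucocorticoid and p53 targets, and as single genes in 3 metabolic lists, while the other rows hold grey points only.

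Markers of other cell types did not pass the test in any list, where 0.393% of all tested genes were called. Mesothelium, the lining of the fat pad, had the largest median of these lists, at 0.18, with 8 of its 10 markers above 0. Its summed signal was 13.03 to 13.34 at CT19 and 12.75 to 13.39 at CT13, where CT13 replicate 3 had the highest value of the 6 arrays. Krt8, Upk1b and Muc16 differed by 0.32, 0.38 and 0.38 with overlap. With the mesothelium score of each array as a covariate, 70 genes were called higher and 26 lower, and all 61 genes stayed called. Macrophage markers (13 tested, median 0.09) had summed signals of 13.07 to 13.37 at CT19 and 13.02 to 13.49 at CT13. For endothelium they were 13.72 to 13.91 at CT19 and 13.72 to 13.89 at CT13, and for fibroblasts 13.74 to 13.95 at CT19 and 13.74 to 13.98 at CT13. Brown adipocyte markers (6 tested, median 0.10) had 11.12 to 11.59 at CT19 and 10.81 to 11.41 at CT13, and Cox8b of that list differed by 0.66 ± 0.32 with overlap (adjusted p = 0.38). In bulk tissue, fewer cells of a type and less RNA per cell cannot be told apart.

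The other time points show that the higher genes did not share 1 daily shape. Of the 45, 38 had their highest CON mean of the 4 time points at CT19, 5 at CT1 and 2 at CT7, which is given as a description because CT19 was part of the choice. The CT1 mean, which the choice did not use, lay nearer to CT19 in 28 genes and nearer to CT13 in 17. From CT1 through CT7 and CT13 to CT19, Angptl8 had means of 9.37 ± 0.12, 9.15 ± 0.07, 10.20 ± 0.57 and 11.81 ± 0.43 (SD, n = 3). Cdkn1a had 10.04 ± 0.04, 9.20 ± 0.23, 9.71 ± 0.13 and 10.87 ± 0.04 at CT1, CT7, CT13 and CT19. Both were highest at CT19 and below it by CT1, whereas the following were near their CT19 level at CT1.

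Klb had 10.98 ± 0.22, 10.15 ± 0.29, 10.05 ± 0.23 and 10.86 ± 0.09 at CT1, CT7, CT13 and CT19, and Dtx4 had 10.67 ± 0.13, 9.64 ± 0.04, 9.91 ± 0.31 and 10.70 ± 0.08. For these the CT1 and CT19 means differed by less than 1 SD of the CT1 arrays. Pfkfb3 was different again, with means of 11.12 ± 0.05, 11.48 ± 0.05, 10.33 ± 0.13 and 11.06 ± 0.13 in the same order, so that CT13 was its lowest point and CT7 its highest. Of the 16 lower genes, 7 had their highest mean at CT7 and 9 at CT13, and 11 had their lowest at CT19 and 5 at CT1. These counts are a description too, because CT13 and CT19 were both part of the choice. Nr1d2, Per3 and Dbp were highest at CT7, at 10.37 ± 0.05, 10.40 ± 0.06 and 10.66 ± 0.07. Nr1d1 had 12.04 ± 0.20, 12.23 ± 0.16, 10.06 ± 0.30 and 9.42 ± 0.27 at CT1, CT7, CT13 and CT19, so most of its daily range lay outside the step. Usp2 and Tspan4 were highest at CT13 (9.89 ± 0.17 and 10.07 ± 0.21) and lowest at CT1 (8.84 ± 0.07 and 9.28 ± 0.09).

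**Figure D4:**
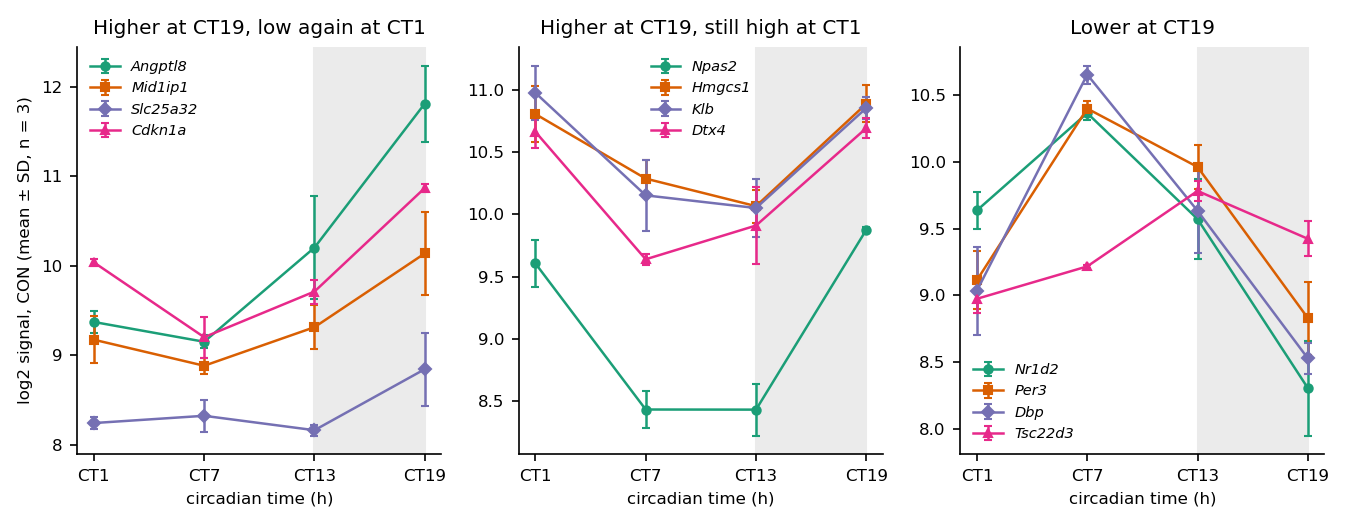
Mean log2 signal (vertical axis, bars are SD, n = 3) of 12 called genes in CON mice at CT1, CT7, CT13 and CT19 (horizontal axis), with the step from CT13 to CT19 shaded. Angptl8, Mid1ip1, Slc25a32 and Cdkn1a are lower again at CT1, Npas2, Hmgcs1, Klb and Dtx4 stay nearer their CT19 level, and Nr1d2, Per3 and Dbp fall after a maximum at CT7.

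The same interval was measured in mice without an SCN clock. In MUT, 40 genes were called between CT19 and CT13 (0.258% of 15526), 22 higher (0.142%) and 18 lower (0.116%), with 1887 at an unadjusted p under 0.05 (12.2%). Over the 45 genes called higher in CON, the MUT median was -0.06 and the range -2.04 to 0.26, with none called higher in MUT and 2, Angptl8 and Mid1ip1, called lower. Over the 16 called lower in CON, the MUT median was -0.07, with 1 called lower, Usp2, and none higher. The difference between the steps, tested directly as CON step minus MUT step over arrays that include those that chose the genes above, was called in 75 genes (0.483%), 54 above 0 (0.348%) and 21 below (0.135%), against 1613 at an unadjusted p under 0.05 (10.4%). Leaving out single arrays moved that count between 22 and 207. The lowest value came without CON CT19 replicate 2 and also without MUT CT13 replicate 3, and the highest without MUT CT13 replicate 2.

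Angptl8 showed the largest such difference. In MUT it had 9.04, 9.35 and 9.36 at CT19 and 10.21, 11.46 and 12.21 at CT13, so that the groups were apart in the direction opposite to CON (separations that 8.93% of tested genes showed upward and 6.31% downward in MUT), with a log2 difference of -2.04 ± 0.33 (limma, adjusted p = 0.00565). CON step minus MUT step was 3.65 ± 0.47 (adjusted p = 0.000334), called with any 1 of the 12 arrays left out. Ppp1r3c followed the same pattern, at 0.77 ± 0.18 in CON and -1.34 ± 0.18 in MUT (difference 2.12 ± 0.26, adjusted p = 0.000272). Mid1ip1 differed by 0.82 in CON and -0.96 in MUT (difference 1.79, adjusted p = 0.00101), and Ppp1r3b, another glycogen-targeting subunit, by 0.66 and -1.03 (1.69, adjusted p = 0.0301). The MUT CT19 arrays of Angptl8 lay close together (SD 0.18) and the MUT CT13 arrays were widely scattered (SD 1.01). From CT1 through CT7 and CT13 to CT19, the MUT means of Angptl8 were 10.2, 9.6, 11.3 and 9.2. Its highest mean was thus at CT13 in MUT and at CT19 in CON. Whether opposite steps reflect a different daily timing in MUT was not tested.

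In the clock loop, both DEC genes and both REV-ERB genes were called for the difference. Bhlhe40 had 9.08, 9.42 and 8.67 at MUT CT19 and 9.75, 10.78 and 10.84 at MUT CT13, so its step was 0.90 ± 0.22 in CON and -1.40 ± 0.22 in MUT, without overlap in either genotype (difference 2.30 ± 0.31, limma, adjusted p = 0.000341). At CT1, CT7, CT13 and CT19 the MUT means of Bhlhe40 were 9.91, 9.60, 10.45 and 9.05, highest at CT13, whereas in CON CT19 was highest. Bhlhe41 differed between the genotypes by 1.81 ± 0.34 (adjusted p = 0.0148). Nr1d1 had 11.95, 11.81 and 11.24 at MUT CT19 and 10.34, 9.80 and 9.84 at MUT CT13, so its step was -0.64 in CON and 1.67 ± 0.17 in MUT, where it was called (adjusted p = 2.5e-05; difference -2.31 ± 0.24, adjusted p = 3.76e-05). Nr1d2 differed by -2.03 ± 0.27 (adjusted p = 0.000334), with a MUT step of 0.76 that did not pass (adjusted p = 0.087).

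Arntl had 8.96, 9.12 and 9.38 at MUT CT19 and 9.51, 9.46 and 9.58 at MUT CT13, a step of -0.37 ± 0.15 that did not pass (adjusted p = 0.303), and its difference from the CON step was 1.54 ± 0.20 (limma, adjusted p = 0.000334). The MUT means of Arntl at CT1, CT7, CT13 and CT19 were 8.49, 8.19, 9.52 and 9.15. They were highest at CT13, while the CON means were highest at CT19. Npas2 differed by 1.32 ± 0.24 (adjusted p = 0.0126), Dbp by -1.40 ± 0.24 (adjusted p = 0.00689), Per3 by -1.04 ± 0.22 (adjusted p = 0.0317) and Per1 by -1.02 ± 0.20 (adjusted p = 0.0244). The difference was not called for Clock (0.30 ± 0.12, adjusted p = 0.364) or Tef (-0.59 ± 0.16, adjusted p = 0.101). Usp2 stepped by -0.45 in CON and -0.49 in MUT, both called, with a difference of 0.04 ± 0.14 (adjusted p = 0.96). Syt10, whose locus carries the Cre driver in both genotypes, was near the signal filter and did not differ detectably in either step (0.03 ± 0.08 in CON, -0.06 ± 0.08 in MUT).

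Among the other genes of the step, Cdkn1a differed between genotypes by 1.27 ± 0.23 (limma, adjusted p = 0.0108) and Pfkfb3 by 1.03 ± 0.14 (adjusted p = 0.000334). Pfkfb3 had 10.49, 10.78 and 10.90 at MUT CT19 and 11.01, 10.93 and 11.14 at MUT CT13, where CT19 lay below CT13. In cholesterol synthesis the difference was called for 4 of 16 genes, all above 0, against 0.348% of all tested genes called above 0. These were Insig1, which holds back SREBP activation and was named after its value was seen (1.55, adjusted p = 0.0257), Sc5d (0.79, adjusted p = 0.042), Cyp51 (1.42, adjusted p = 0.0244) and Sqle (0.94, adjusted p = 0.0349). Of the 12 fits with 1 array left out, the call held in 7 for Cyp51, in 6 for Insig1 and for Sqle, and in 4 for Sc5d. The difference was not called for Hmgcs1 (0.81 ± 0.19, adjusted p = 0.0614) or Srebf2 (0.36 ± 0.09, adjusted p = 0.0711). Klb was not called either (0.64 ± 0.19, adjusted p = 0.15). Among the largest negative differences were Pck1, the glyceroneogenesis enzyme of fat (-0.55 ± 0.22 in CON, 0.93 ± 0.22 in MUT), and the zinc finger gene Zim1 (-0.15 in CON, 1.41 in MUT).

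**Figure D5:**
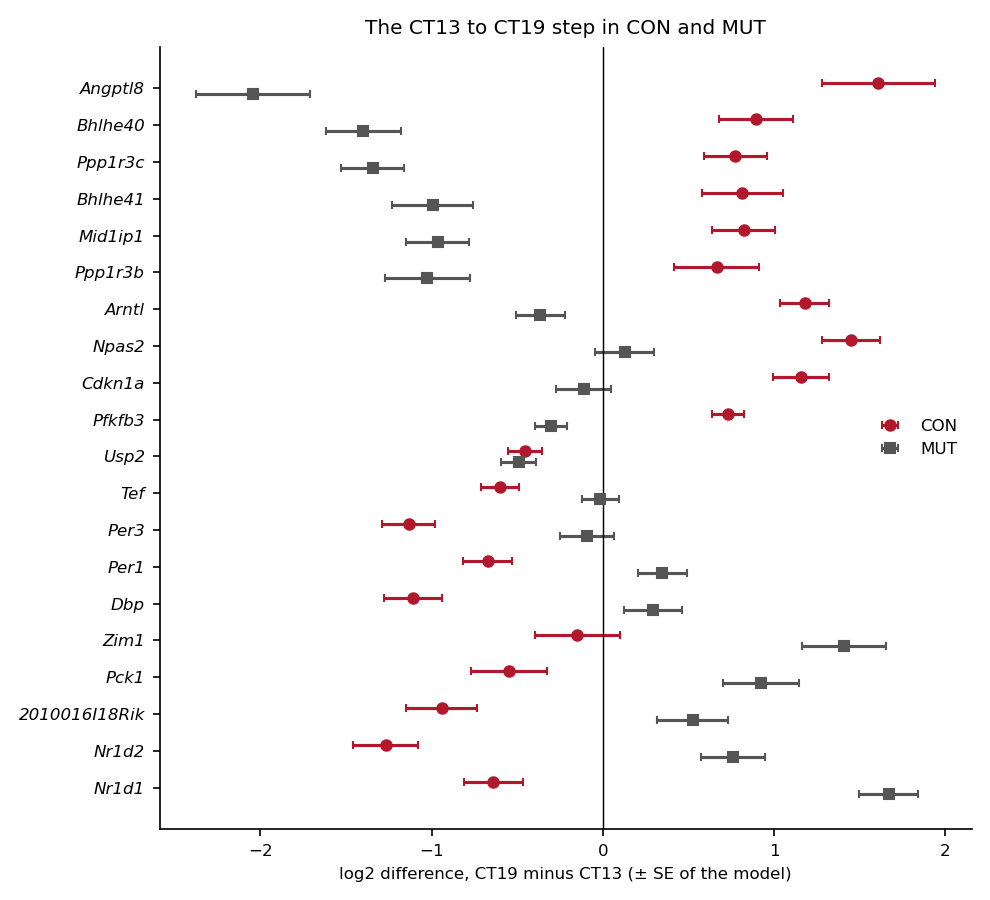
Log2 difference, CT19 minus CT13 (horizontal axis, bars are the SE of the model), of 20 genes in CON (red circles, upper of each pair) and MUT (grey squares). Angptl8, Bhlhe40, Ppp1r3c, Bhlhe41, Mid1ip1 and Ppp1r3b lie right of 0 in CON and left of 0 in MUT, Nr1d1 and Nr1d2 the other way round, and Usp2 lies left of 0 in both.

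The promoter windows of the called genes were searched for the motifs of the clock and of sterol control on both strands, and the matches are descriptions of letters only. Of the 45 higher genes, 36 had a window, and 7 of these (19.4%) held an E-box, as did 3 of the 13 lower genes with a window (23.1%) and 1305 of 12046 tested genes with one (10.8%). The share was 7.15% over all windows of the table. A D-box was found in none of the higher genes and in 2 lower genes (15.4%), Per3 and Crtac1, against 1.85% of tested genes and 2.32% of all windows. The RORE core was in Arntl alone (2.78% of the higher genes, against 2.45% of tested genes and 2.61% of all windows). The cAMP element (TGACGTCA) was in 1 higher gene, Dhx36 (2.78%, against 3.03% of tested genes and 1.79% of all windows). The sterol element was in 2 higher genes, Hmgcs1 and Tiparp (5.56%), against 1.47% of tested genes and 1.24% of all windows. Genes with several annotated starts had a window for each, and the motifs searched do not overlap one another in these windows.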

How the data were processed

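Total RNA was isolated with Trizol and biotin-labelled, per the labels' protocols. The authors deposited log2 expression values per probe set, made with RMA in Affymetrix Expression Console per the submitters' processing notes. No version, setting or genome build is given in the sources used here. Values run from 4.157 to 14.5, and precision is limited by 3 arrays in each group.

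Of 34390 probe sets, 23521 carry 1 symbol in the platform annotation, 1814 several and 9055 none, and 193 single symbols could not be matched by Entrez identifier to RefSeq (GRCm38.p6). Probe sets with several symbols or none were not used. The brightest probe set stood for a gene, and genes with a mean log2 signal under 7.416 (the 30th percentile) were left out. All 24 arrays entered 1 cell-means model of the 8 groups in limma 3.58.1, run under R 4.3.3 (16 residual and 6.6 prior degrees of freedom). Tests were moderated and two-sided, adjusted by Benjamini-Hochberg over all 15526 genes at 0.05, and were tested on simulated data. A difference is CT19 minus CT13, given with the SE of the model, and a fold is 2 to the power of its size. Probability values rest on a spread between mice that was pooled over all 8 groups and moderated across genes. They do not measure the spread of the 3 and 3 mice compared alone.

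The text names all clock genes of the lists, the 12 highest and 12 lowest called differences without overlap, up to 4 members per list with the smallest p and up to 2 further examples, the 6 highest and 6 lowest differences between steps, Arntl and Syt10. Other genes were named after their values were seen. The members and lists were chosen with earlier results of these data known. Replicate letters were not treated as pairs of mice. Same-letter deviations from the group means correlated at -0.23, 0.08 and -0.11 in CON and -0.13, 0.16 and 0.05 in MUT. Across letters, CON CT19 replicate 1 and CON CT13 replicate 3 correlated at 0.43. These values cannot show how the mice were housed or processed.

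The alternatives were quantile normalization, equal medians, removal of the level trend, single arrays left out, letters as a block, no filter or a stricter one (60th percentile), probe sets averaged per gene, smaller sets of arrays, trended and robust variance, array weights, a 1.5-fold minimum and a mesothelium covariate (median deviation of its markers per array). Promoter windows are RefSeq's. Python 3.11.15 with matplotlib 3.10.9 drew the figures.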

Additional observations from a re-analysis of the deposited data

Results flagged for a closer look

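The step from CT13 to CT19 differed between CON and MUT, tested directly in limma as CON step minus MUT step, in 75 genes. All values that follow are log2 differences between the 2 steps, positive where the CON step was the higher. They cover the named genes only.

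Among clock genes the difference was positive for Bhlhe40 (2.30), Bhlhe41 (1.81), Arntl (1.54), Npas2 (1.32), Nfil3 (0.84) and Cry1 (0.61). It was negative for Nr1d1 (-2.31), Nr1d2 (-2.03), Dbp (-1.40), Per3 (-1.04) and Per1 (-1.02).

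Among genes of lipid, sterol and glucose metabolism it was 3.65 for Angptl8, 2.12 for Ppp1r3c, 1.79 for Mid1ip1, 1.69 for Ppp1r3b, 1.55 for Pnpla3, 1.55 for Insig1, 1.42 for Cyp51, 1.03 for Pfkfb3, 0.97 for Srebf1, 0.94 for Sqle, 0.89 for Hk2, 0.79 for Sc5d and 0.61 for Pfkp. Pck1 stood at -1.48. The difference was 0.77 for Ddhd2, 0.67 for Gpcpd1 and 0.61 for Pla2g15.

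The other named genes with a positive difference were Snora62 (1.47), Cdkn1a (1.27), Dusp4 (1.26), Slc25a32 (0.98), Glrx (0.86), Dtx4 (0.83), Phlda3 (0.71), Smg5 (0.58), Vegfa (0.58), Afap1 (0.52) and Chd4 (0.50). The other named genes with a negative difference were Zim1 (-1.56) and 2010016I18Rik (-1.47). Angptl8, Arntl, Bhlhe40, Cdkn1a, Chd4, Dbp, Mid1ip1, Nfil3, Npas2, Nr1d1, Nr1d2, Pfkfb3, Pnpla3 and Ppp1r3c were called with any 1 of the 12 arrays left out.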

How the results depend on the processing

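The control counts (45 higher, 16 lower) depended on the processing, and the cause was not tested. Leaving out 1 array gave 4 to 52 genes higher and 3 to 19 lower, with the lowest counts without CON CT13 replicate 1. No level filter gave 24 and 5, a filter at the 60th percentile 69 higher, only the arrays of the groups compared 8 and 3, only the 12 CON arrays 29 and 8, a fold of at least 1.5 17 and 6, and the mesothelium covariate 70 and 26. Quantile normalization gave 30 lower and equal medians 8 lower. The replicate block, for letters that were not treated as pairs in the main fit, gave 32 higher and 9 lower, 28 genes in MUT and 60 for the difference between steps. The remaining settings left the control counts within 1.5 times. In MUT (40 genes), omissions gave 7 to 151, no level filter 25, only the arrays of the groups compared 4, array weights 127 and a fold of at least 1.5 19. For CON step minus MUT step (75 genes), omissions gave 22 to 207 and only the arrays of the groups compared 12, and the other settings stayed within 1.5 times. Dim probe sets, 3 arrays per group and probe sets shared by several genes limit what could be called.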
